A study of Mus musculus with 24 samples.

Results

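The outer and inner membranes of the mitochondrion carry protein translocases whose subunits bear the gene names Tomm (translocase of the outer membrane) and Timm (translocase of the inner membrane). The genes described here were all protein-coding mouse genes whose symbol starts with Tomm or Timm followed by a digit. The reference annotation holds 25 such genes, and 24 of them had values among the 15878 genes with values in the count table. The remaining gene, Tomm20l, was blank in every library. The pseudogene Timm29-ps1 and the noncoding Tomm6os were left out. Of the 24 genes, 23 passed the filter on low counts and were tested beside 10219 genes in all. Timm8a2 did not pass, with 63 counts over all libraries.

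RNA was measured in microglia, the macrophages that reside in the brain, sorted from the brains of wild-type mice by fluorescence-activated cell sorting and amplified by Smart-seq2, a full-length method for small RNA amounts. The 24 libraries fall into 4 groups of 6, all from day 28. WD-Exos mice had the BCAS operation and WD exosomes, ND-Exos mice had the same operation and ND exosomes, BCAS mice had the operation with phosphate-buffered saline, and Sham mice had a sham operation with phosphate-buffered saline. The abbreviation BCAS usually stands for bilateral carotid artery stenosis, which narrows the arteries that feed the forebrain. Exosomes, which are small secreted vesicles, were given through the tail vein every 3 days, 100 µg each time, and the series title gives foam cells, or lipid-laden macrophages, as their source. The labels do not spell out ND and WD, and they give no strain, sex or age. They do not say that the 6 libraries of a group came from separate mice, so the tests reflect only the spread between these libraries, which may be technical.

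Nearly all mitochondrial proteins are encoded in the nucleus, made in the cytosol and imported. Precursors meet the receptors of the outer-membrane complex (TOM), cross its beta-barrel pore, and are then handed on. Small chaperones escort hydrophobic precursors through the intermembrane space to the TIM22 complex, which inserts carrier proteins into the inner membrane, while the TIM23 complex and its motor pull precursors with a cleavable presequence into the matrix. In microglia, as in other cells, this supply feeds the respiratory chain and the enzymes of mitochondrial metabolism.

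Promoter sequence was taken from RefSeq (GRCm38.p6) for 21 of the 24 genes and searched on both strands over the 250 bases before the start of the gene. Tomm7, Tomm40l and Timm21 had no promoter entry and were not searched. The ETS family core CCGGAAG stood in 8 of the 21, which is 38.1%, against 7.05% of 27025 promoters in all. Among tested genes it stood in 7 of 20 import genes, which is 35%, against 15.5% of the promoters of 8343 genes. The 8 import genes, of which Timm8a2 was not tested, were Tomm22, Tomm34, Tomm70a, Timm8a2, Timm8b, Timm10, Timm23 and Timm29. The core motif of nuclear respiratory factor 1 (NRF1) stood in Tomm20 only, or 5% of the 20, against 9.29% of tested-gene promoters. The YY1 core AAGATGG stood in Tomm34 only, also 5% of the 20, against 4.58% of tested-gene promoters. The 100 bases before the start are printed for 5 genes because these hold the highest level per length (Tomm6), further high levels (Timm23, Tomm22), the lowest level among tested genes (Tomm70a) and the NRF1 core (Tomm20). Each reads 5′ to 3′ on the gene's strand, and capitals mark the cores. They lie at chr17:47688387-47688486 (minus strand) for Tomm6, chr14:32201892-32201991 (minus) for Timm23, chr15:79670768-79670867 (plus) for Tomm22, chr16:57121614-57121713 (plus) for Tomm70a and chr8:126945922-126946021 (minus) for Tomm20.
Tomm6: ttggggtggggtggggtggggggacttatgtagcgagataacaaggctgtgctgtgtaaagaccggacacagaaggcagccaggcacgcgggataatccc
Timm23: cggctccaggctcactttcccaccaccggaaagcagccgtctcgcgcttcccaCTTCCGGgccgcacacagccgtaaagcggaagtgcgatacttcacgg
Tomm22: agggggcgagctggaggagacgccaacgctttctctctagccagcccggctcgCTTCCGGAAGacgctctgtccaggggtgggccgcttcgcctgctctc
Tomm70a: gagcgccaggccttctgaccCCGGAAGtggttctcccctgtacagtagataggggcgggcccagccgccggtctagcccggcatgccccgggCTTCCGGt
Tomm20: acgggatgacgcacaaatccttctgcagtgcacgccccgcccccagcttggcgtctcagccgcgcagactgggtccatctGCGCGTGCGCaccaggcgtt
In Tomm22 the ETS core lies on both strands and overlaps itself, from base 47 to base 38 before the start. Tomm70a carries it at 2 places, the nearer ending 2 bases before the start, and Timm23 carries it from base 47 to base 41. Among the genes with the ETS core, Timm23 stood near the top of the order of levels given below, and Tomm70a and the untested Timm8a2 were the lowest of the order. A match is a run of letters and was not tested as a binding site.

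The libraries held 24277722 to 28892423 counts each and detected 8515 to 10797 genes. All 10 microglial markers were present, with a summed level of 53302 CPM in WD-Exos, 48032 in ND-Exos, 53061 in BCAS and 46119 in Sham. CPM are counts divided by the library total after TMM scaling, an adjustment for library composition. Markers of oligodendrocytes reached a summed 7541 CPM in Sham replicate 4, 5302 in WD-Exos replicate 6 and 4160 in ND-Exos replicate 3, against group medians of 227 to 329 CPM. Markers of 4 other cell types reached their highest sums in single Sham libraries. The 7 markers of border macrophages summed to 17.3 to 137 CPM in WD-Exos, 51.2 to 586 in ND-Exos, 0.22 to 424 in BCAS and 51.8 to 1289 in Sham. Those of mural cells, 5 in number, reached at most 19.9 CPM in WD-Exos, 12.1 in ND-Exos, 0.0433 in BCAS and 981 in Sham. The 5 markers of endothelium reached at most 78.6 CPM in WD-Exos, 44.5 in ND-Exos, 33.5 in BCAS and 312 in Sham, and the 7 of neurons at most 16.8 CPM in WD-Exos, 23.1 in ND-Exos, 19.6 in BCAS and 249 in Sham. None of these 24 markers was at 0 in all libraries. Other lists did not peak in Sham. Markers of astrocytes reached at most 385 CPM in WD-Exos, 450 in ND-Exos, 255 in BCAS and 174 in Sham. Those of oligodendrocyte precursors reached their highest sum, 128 CPM, in ND-Exos replicate 3, and those of monocytes theirs, 31.9 CPM, in WD-Exos replicate 6. Those markers of neutrophils, T and NK cells and B cells that had values summed to under 1 CPM in each library. The share of counts from 80 ribosomal protein genes was 3.95% ± 0.604 in WD-Exos, 4.27% ± 0.463 in ND-Exos, 4.18% ± 0.744 in BCAS and 5.74% ± 0.514 in Sham (SD, n = 6 each).

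The import genes differed far more from each other than between the groups. Divided by the length of the principal transcript, the mean level over 24 libraries was 156 CPM per kilobase for Tomm6, the highest, and 2.7 for Tomm70a, the lowest tested. The presequence channel Timm23 stood at 94.6 CPM per kilobase, the receptor Tomm22 at 69.6, the small subunit Tomm7 at 62.8 and the chaperone Timm13 at 60. The order then ran through Timm8b, Tomm5 and Tomm34, and the next level was that of Timm50, at 28 CPM per kilobase. The beta-barrel pore Tomm40 stood at 8.99 and its relative Tomm40l at 8.33 CPM per kilobase, among the lowest 6 of the 24. Timm8a2, a paralog of Timm8a1, had counts in 2 of 24 libraries and reached 2.16 CPM in 1 WD-Exos library. The place of several genes depended on the transcript chosen, which the deposited counts cannot settle. Tomm20 stood at 19.6 CPM per kilobase with its principal transcript of 4902 bases and at 210 with its shortest coding transcript, and Timm17a stood at 5.04 and 78.4. With their shortest coding transcripts Tomm40l stood at 108 and Tomm40 at 41 CPM per kilobase, so their low places also depended on this choice.

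**Figure D1:**
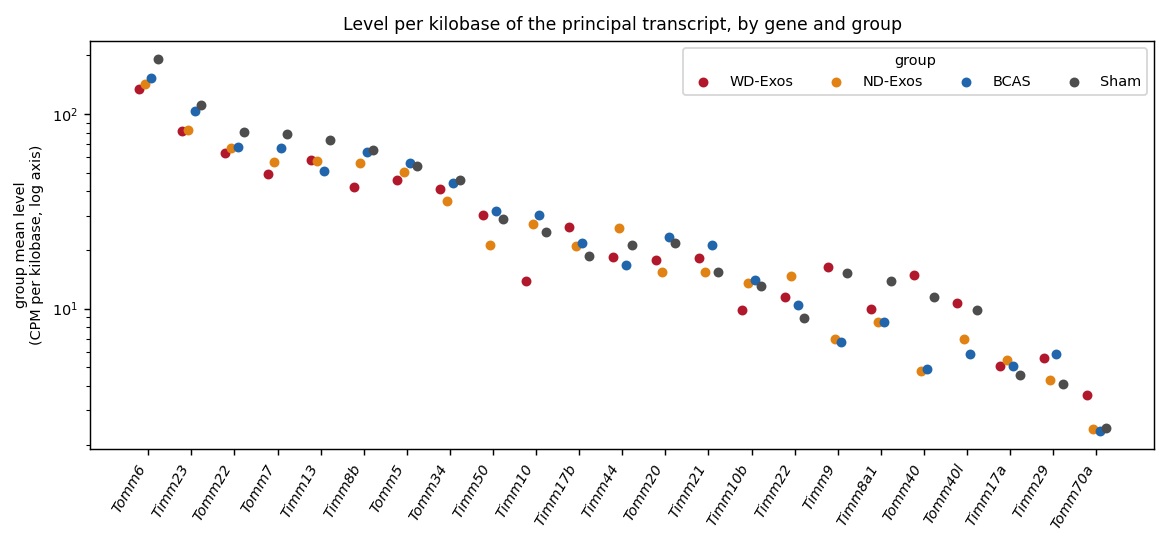
Group mean level of each tested import gene in CPM per kilobase of the principal transcript, on a log axis, with the genes in falling order of their mean over 24 libraries. Points are the means of 6 libraries in WD-Exos, ND-Exos, BCAS and Sham. The 4 points of a gene lie close together beside the range over genes, which runs from 156 for Tomm6 to 2.7 for Tomm70a.

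Import genes were measured with less spread than most genes in the table. The biological coefficient of variation, the estimated spread between libraries beyond counting error, had a median of 0.588 over the 23 genes and 1.2 over all tested genes. It was lowest for Tomm6, at 0.311, and highest for Timm29, a subunit of the TIM22 complex in human cells, at 1.91. The import genes also had a higher level, with a median of 39.3 CPM against 20.3 CPM over all tested genes. Among genes between 30 and 100 CPM the median was 0.516 over 13 import genes and 0.615 over 2556 genes, and between 10 and 30 CPM it was 1.41 over 7 import genes and 1.34 over 3064 genes. A library without a count occurred for 5 of the 23 genes, or 21.7%, against 52% of all tested genes. These were Tomm40 and Timm8a1 with 3 such libraries each, Timm9 and Tomm70a with 2 each, and Timm29 with 5.

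**Figure D2:**
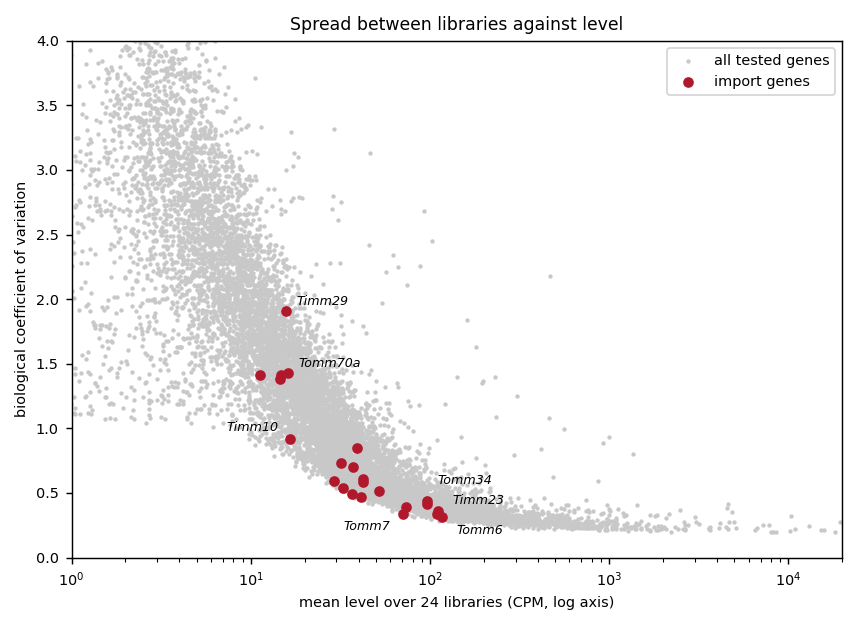
Biological coefficient of variation of each tested gene against its mean level over 24 libraries in CPM, on a log axis, with all tested genes in grey and the import genes in red. The vertical axis ends at 4, and genes above it are not drawn. The import genes lie within or along the lower edge of the cloud of genes at the same level, from 0.311 for Tomm6 to 1.91 for Timm29.

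No import gene passed the threshold in any comparison of the design. Each comparison used edgeR's quasi-likelihood test with Benjamini-Hochberg adjustment over 10219 genes and a threshold of 0.05, and DESeq2 and voom called none of the import genes in these 4 comparisons either. The BCAS libraries are shared by 3 of the 4 comparisons, so their outcomes are not independent of each other. In bulk libraries, a lower RNA level per cell and a smaller share of cells with the RNA cannot be told apart.

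BCAS against Sham asks what the operation itself goes with. Of the 23 import genes, 10 were higher and 13 lower in BCAS, beside 50.1% of all genes on the lower side. The median log2 fold change was −0.04, against −0.00 over all tested genes. With 1 library left out at a time it took both signs, from −0.19 without BCAS replicate 2 to 0.03 without BCAS replicate 1. None passed the threshold, as none did among all genes (0%). Without BCAS replicate 2 edgeR called 32 of all genes in this comparison, and still 0 import genes. None had an unadjusted p under 0.05, against 6.04% of all genes, and for none did the BCAS and Sham libraries lie apart, against 0.245% of all genes lying apart on the lower side and 0.127% on the higher. The smallest adjusted p of an import gene was 0.941.

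ND-Exos against BCAS and WD-Exos against BCAS ask what each kind of exosome goes with in operated mice. In ND-Exos, 8 import genes were higher and 15 lower than in BCAS, beside 49.6% of all genes on the lower side. The median log2 fold change of the import genes was −0.05, against 0.01 over all genes, and −0.23 to 0.01 with 1 library left out, the positive value being that without BCAS replicate 4. None passed, against 0.0196% of all genes, and none had an unadjusted p under 0.05, against 4.47%. In WD-Exos, 10 were higher and 13 lower than in BCAS, beside 51.1% of all genes on the lower side, with a median of −0.08 against −0.02 over all genes. That median ran from −0.18 to 0.07 with 1 library left out, the positive end being that without BCAS replicate 3, and was 0.04 with voom. None passed, as none did among all genes (0%), and none had an unadjusted p under 0.05, against 3.7%. Every adjusted p of an import gene was 1 in both comparisons. No import gene had libraries that lay apart from those of BCAS, against 0.0979% of all genes on the higher side and 0.0881% on the lower in ND-Exos, and 0.117% and 0.0685% in WD-Exos.

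WD-Exos against ND-Exos sets the exosome kinds against each other. Here 12 import genes were higher and 11 lower in WD-Exos, beside 50.8% of all genes on the lower side, with a median log2 fold change of 0.02 against −0.01 over all genes. With 1 library left out the median ran from −0.06 to 0.11, and it was below 0 without ND-Exos replicate 5 and without WD-Exos replicate 4, 5 or 6, and also with the replicate block and with voom, at −0.03 each. None passed, against 0.0196% of all genes, and none had an unadjusted p under 0.05, against 5.33%. No import gene had WD-Exos and ND-Exos libraries that lay apart, against 0.294% of all genes on the higher side and 0.225% on the lower. A test of any difference among the 4 groups called no import gene either, against 0.0294% of all genes, and gave an unadjusted p under 0.05 for 1 import gene, Tomm7, with an adjusted p of 0.725, where 6.33% of all genes had such a p. DESeq2 gave Tomm7 an adjusted p of 0.0478 in that test, in which it called 160 of all genes where edgeR called 3.

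**Figure D3:**
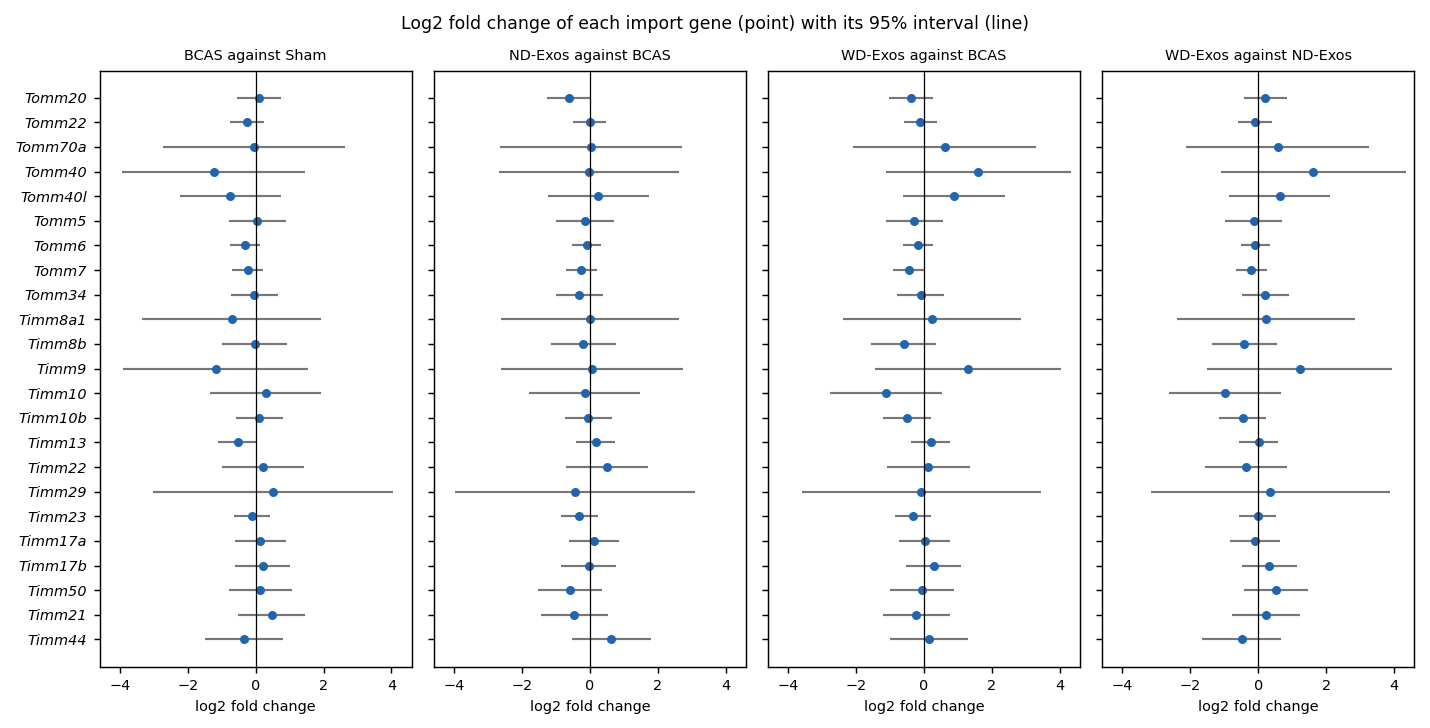
Log2 fold change of the 23 tested import genes, ordered by role, in the 4 comparisons, with WD-Exos, ND-Exos or BCAS over the group named after it. Points are edgeR estimates, and lines are approximate 95% intervals worked out from the F statistic of each test. All intervals include 0, those of Tomm6, Tomm7 and Tomm22 are among the shortest, and those of Tomm40, Tomm70a, Timm8a1, Timm9 and Timm29, the genes with libraries at 0, are the longest.

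The intervals show which sizes of change the data leave room for. The median standard error of a log2 fold change was 0.46 over the import genes and 1.10 over all genes in BCAS against Sham. For Tomm22 in WD-Exos against BCAS the log2 fold change was −0.11, with a 95% interval from −0.60 to 0.38. For Tomm40 in the same comparison it was 1.60, with an interval from −1.13 to 4.32, so large changes in either direction lie within it.

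Among the receptors of the TOM complex, Tomm20 and Tomm22 had the higher counts and Tomm70a the lowest level per length. Tomm22, which joins the receptors to the pore, ran from 68.2 to 172 CPM with a median of 87.1 in WD-Exos, from 97.6 to 122 with a median of 103 in ND-Exos, from 72.9 to 130 with a median of 113 in BCAS and from 79.2 to 179 with a median of 116 in Sham. The 4 ranges overlapped throughout, and the ND-Exos libraries were the most alike. Tomm20 (Entrez Gene 67952), which binds presequences, was the lower import gene with the smallest p in ND-Exos against BCAS. It ran from 48.7 to 104 CPM with a median of 71.2 in ND-Exos and from 56.3 to 221 with a median of 90.5 in BCAS. The log2 fold change was −0.61 (SE 0.32, adjusted p = 1), and it was −0.31 without BCAS replicate 2, the library at 221 CPM. Sham libraries had 85 to 144 CPM and WD-Exos libraries 45.8 to 150 CPM of Tomm20, so the ND-Exos libraries lay within the range of WD-Exos. Tomm20 has 10 near-identical copies in the annotation, none with values in the table, so reads from them may count toward it or be lost. The same holds for Tomm22, Timm8a1, Timm17a, Timm17b, Timm21 and Timm23, so that 7 import genes have such copies. Tomm70a, the receptor for carrier precursors, averaged 21.4 ± 7.13 CPM in WD-Exos, 14.4 ± 14.5 in ND-Exos, 14 ± 13 in BCAS and 14.6 ± 7.72 in Sham (SD, n = 6 each).

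Among the pore and small subunits, Tomm7 was the lower import gene with the smallest p in WD-Exos against BCAS. Tomm7 (Entrez Gene 66169, chromosome 5) encodes a small membrane protein that affects the assembly of the TOM complex and, in human cells, the retention of the kinase PINK1 at damaged mitochondria. It ran from 42.1 to 68.1 CPM with a median of 52.4 in WD-Exos, from 46.2 to 77.2 with a median of 66 in ND-Exos, from 63.7 to 95.8 with a median of 74.4 in BCAS and from 73.2 to 105 with a median of 88 in Sham. The means stood in the order WD-Exos, ND-Exos, BCAS and Sham, lowest to highest, and neighbours in this order overlapped. WD-Exos averaged 55.1 ± 9.67 CPM and BCAS 75.3 ± 11.2 CPM (SD, n = 6 each), a log2 fold change of −0.45 (SE 0.22, adjusted p = 1). All 6 WD-Exos libraries lay below the BCAS median, and 4 lay below the lowest BCAS library. In BCAS against Sham the log2 fold change was −0.24, in ND-Exos against BCAS it was −0.25, and in WD-Exos against ND-Exos it was −0.20, each with an SE of 0.22 and an adjusted p of 1. The neighbouring groups were therefore not separated by edgeR beyond their spread.

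Because this order runs across the design, the exosome groups were also set against Sham, a pair of comparisons added after the values were seen. Both exosome groups differ from Sham in the operation and in the exosomes, which cannot be told apart in these comparisons. All 6 WD-Exos libraries had less Tomm7 than the lowest Sham library, which had 73.2 CPM. WD-Exos averaged 55.1 ± 9.67 CPM and Sham 88.6 ± 12.8 CPM, a log2 fold change of −0.69 (SE 0.22, 95% interval −1.15 to −0.22), and the adjusted p was 0.396 with edgeR. Tomm7 was the only import gene whose groups lay apart in that comparison, where 0.744% of all genes lay apart on the lower side and 0.294% on the higher. With DESeq2 in place of edgeR its adjusted p was 0.029, and DESeq2 called 172 genes in that comparison where edgeR called 0 (0%). Tomm7 averaged 63.4 ± 13.9 CPM in ND-Exos, against the same Sham level, a log2 fold change of −0.48 (adjusted p = 0.692). In ND-Exos against Sham no import gene passed the threshold, against 0.108% of all genes, and none had groups that lay apart, against 0.294% of all genes on the higher side and 0.851% on the lower. Tomm7 was the 1 import gene of 23 with an unadjusted p under 0.05, against 6.66% of all genes. The share of ribosomal protein counts was also lower in these groups, at 3.08% to 4.82% in WD-Exos and 3.48% to 4.82% in ND-Exos against 5.25% to 6.54% in Sham. It ran from 3.58% to 5.65% in BCAS, whose mean of 4.18% lay below the ND-Exos mean of 4.27%. The part of this share in the result was not tested. The summed markers of border macrophages had means of 73.9 CPM in WD-Exos, 272 in ND-Exos and 451 in Sham. Mural cell markers averaged 5.09 CPM in WD-Exos, 3.9 in ND-Exos and 192 in Sham, those of endothelium 37.2, 23.8 and 106 CPM in the same order, and those of neurons 5.13, 7.96 and 50.7 CPM. The Sham medians were lower than the Sham means, at 188, 10.3, 29.3 and 14.7 CPM for the 4 lists in that order, and the highest sums were those of Sham replicate 1 for border macrophages and neurons, replicate 2 for mural cells and replicate 3 for endothelium. Markers of astrocytes and monocytes went the other way, with means of 193 and 7.82 CPM in WD-Exos, 245 and 10.3 in ND-Exos and 136 and 4.16 in Sham. Those of oligodendrocytes had means of 1139 CPM in WD-Exos, 865 in ND-Exos and 1487 in Sham, and medians of 329, 227 and 316. Those of oligodendrocyte precursors averaged 0.184 CPM in WD-Exos, 21.6 in ND-Exos and 18.9 in Sham. Without Sham replicate 1, 2 or 3 the log2 fold change of Tomm7 in WD-Exos against Sham was −0.63, −0.71 or −0.67 in that order. The edgeR adjusted p values were 0.6, 0.383 and 0.568. Without Sham replicate 4, which had the highest sum of oligodendrocyte markers, the edgeR adjusted p was 0.446. With any 1 library left out the log2 fold change ran from −0.74 to −0.62. Leaving out single libraries cannot separate the part of other cells in the Tomm7 result, which was not tested.

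Tomm6, another small subunit, was the most abundant import gene, and its means stood in the same order. It ran from 72.1 to 124 CPM with a median of 103 in WD-Exos, from 81 to 153 with a median of 104 in ND-Exos, from 83.2 to 171 with a median of 112 in BCAS and from 115 to 187 with a median of 142 in Sham. In WD-Exos against Sham, 5 of 6 WD-Exos libraries lay below the lowest Sham library, and the log2 fold change was −0.50 (SE 0.21, adjusted p = 0.685). Tomm6 and Tomm7 were the 2 of 23 import genes with an unadjusted p under 0.05 there, against 5.39% of all genes. With group means removed, these 2 genes correlated at 0.58 across the 24 libraries. That was the highest of 153 pairs of import genes with counts in every library, whose median was 0.09. Their shared order is therefore not 2 independent results. In BCAS against Sham the log2 fold change of Tomm6 was −0.31 (SE 0.21, adjusted p = 1), with 115 ± 30 CPM in BCAS and 143 ± 26.8 CPM in Sham. Tomm6 shares 656 exonic bases with another annotated gene on the same strand, so the split of reads between them is uncertain. Tomm5, the remaining small subunit, averaged 29.3 ± 8.71 CPM in WD-Exos, 32.3 ± 12 in ND-Exos, 35.7 ± 9.41 in BCAS and 34.4 ± 10.1 in Sham.

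**Figure D4:**
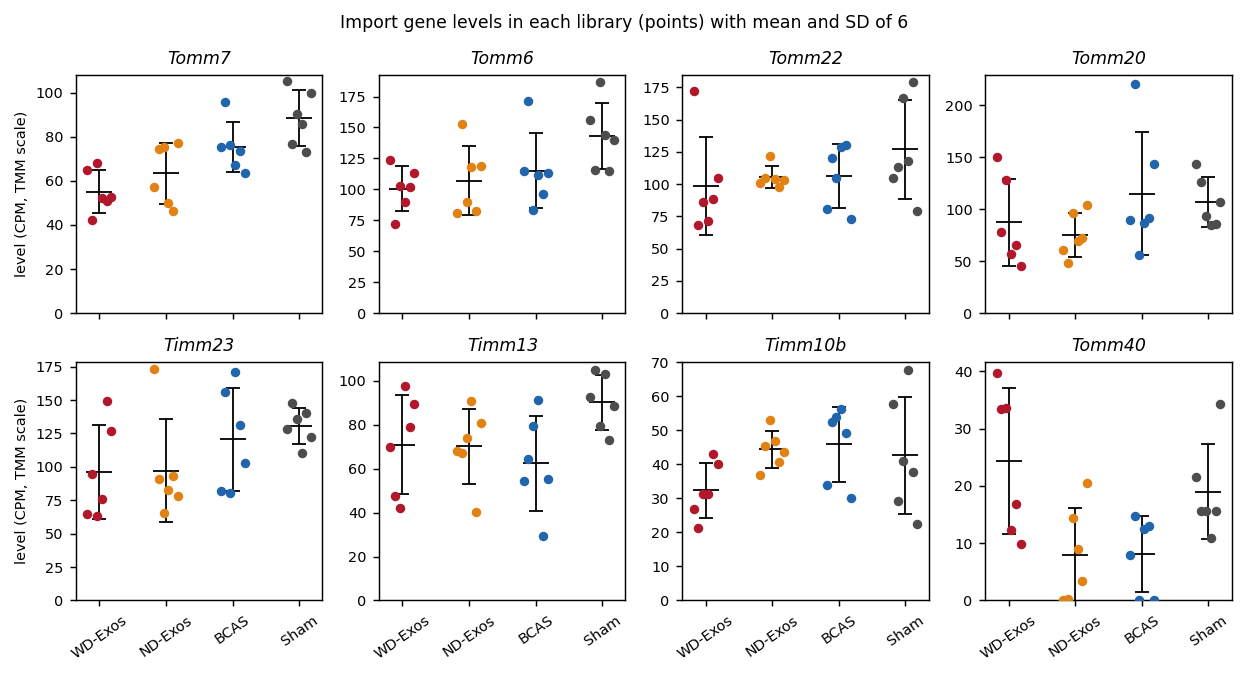
Level in CPM on the TMM scale of 8 import genes in each library (points), with the mean and SD of 6 libraries (bars), in WD-Exos, ND-Exos, BCAS and Sham. Tomm7 lies at 42.1 to 68.1 CPM in WD-Exos, below all Sham libraries, which lie at 73.2 to 105 CPM, while the other 7 genes overlap between every pair of groups.

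The pore gene Tomm40 (Entrez Gene 53333, chromosome 7) showed its higher levels in WD-Exos and Sham. It ran from 9.92 to 39.7 CPM with a median of 25.2 in WD-Exos, from 0 to 20.5 with a median of 6.17 in ND-Exos, from 0 to 14.8 with a median of 10.2 in BCAS and from 10.9 to 34.4 with a median of 15.7 in Sham. It had no count in 1 ND-Exos library and 2 BCAS libraries, and was counted in all libraries of the other groups. In WD-Exos against ND-Exos it was the higher import gene with the smallest p, with 24.3 ± 12.7 CPM in WD-Exos against 7.9 ± 8.31 CPM in ND-Exos, a log2 fold change of 1.62 (SE 1.33, adjusted p = 1), and all 6 WD-Exos libraries lay above the ND-Exos median. In BCAS against Sham its log2 fold change was −1.24 (SE 1.31, adjusted p = 1). Its relative Tomm40l was the higher import gene with the smallest p in WD-Exos against BCAS. Tomm40l ran from 31.2 to 81.1 CPM with a median of 48.3 in WD-Exos and from 0.0416 to 74.8 with a median of 21.4 in BCAS, a log2 fold change of 0.88 (SE 0.73, adjusted p = 1) that ran from 0.61 to 1.49 with 1 library left out. It shares 3304 exonic bases with Nr1i3 on the opposite strand, and whether the counting used strand is not given in the sources used here.

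Tomm34, a cytosolic co-chaperone that holds precursors, averaged 95 ± 25.5 CPM in WD-Exos, 82.3 ± 38.5 in ND-Exos, 102 ± 44.4 in BCAS and 105 ± 35.5 in Sham (SD, n = 6 each). The spread within each group exceeded the differences between the means.

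Among the small chaperones of the intermembrane space, Timm13 was the lower import gene with the smallest p in BCAS against Sham. Timm13 (Entrez Gene 30055, chromosome 10), the partner of Timm8a, ran from 29.5 to 91.3 CPM with a median of 59.8 in BCAS and from 73 to 105 with a median of 90.6 in Sham. In BCAS, 4 of 6 libraries lay below the lowest Sham library and 5 below the Sham median. The means were 62.4 ± 21.6 CPM in BCAS and 90.3 ± 12.8 CPM in Sham, a log2 fold change of −0.53 (SE 0.28, adjusted p = 0.941). With exosomes Timm13 averaged 71 ± 22.5 CPM in WD-Exos and 70.2 ± 17.1 CPM in ND-Exos, and the log2 fold changes over BCAS were 0.19 and 0.17, each with an SE of 0.28 and an adjusted p of 1. Of the 6 tested small chaperones, 2 were higher and 4 lower in BCAS against Sham.

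Timm10b was the lower import gene with the smallest p in WD-Exos against ND-Exos. It ran from 21.2 to 43.1 CPM with a median of 31.2 in WD-Exos and from 36.8 to 52.9 with a median of 44.6 in ND-Exos. All 6 WD-Exos libraries lay below the ND-Exos median and 4 below the lowest ND-Exos library, and the log2 fold change was −0.46 (SE 0.34, adjusted p = 1). The same gene ran from 30.1 to 56.1 CPM in BCAS and from 22.5 to 67.8 CPM in Sham, so the BCAS libraries lay within the range of Sham. Its exons share 368 bases with another gene on the same strand. Timm8b averaged 21.7 ± 7.49 CPM in WD-Exos, 28.9 ± 11.4 in ND-Exos, 33 ± 13.2 in BCAS and 33.7 ± 13.7 in Sham. Timm9 and Timm10, which form a chaperone hexamer, did not share a direction in WD-Exos against BCAS: Timm9 averaged 16.2 ± 5.32 CPM in WD-Exos and 6.64 ± 3.67 in BCAS, and Timm10 averaged 9.52 ± 4.99 CPM in WD-Exos and 20.8 ± 13.6 in BCAS. In the other groups Timm9 averaged 6.94 ± 5.9 CPM in ND-Exos and 15.1 ± 13.5 in Sham, and Timm10 averaged 18.8 ± 5.01 CPM in ND-Exos and 17 ± 14.1 in Sham. Neither passed the threshold, and the difference between the genes was not tested. Timm8a1 averaged 14.2 ± 11.4 CPM in WD-Exos, 12.2 ± 8.28 in ND-Exos, 12.1 ± 13.3 in BCAS and 19.8 ± 2.5 in Sham.

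The TIM22 complex was represented by the channel Timm22 and by Timm29. Timm22 averaged 32 ± 14.6 CPM in WD-Exos, 41.3 ± 18.7 in ND-Exos, 29.3 ± 18.2 in BCAS and 25.3 ± 15.3 in Sham. Timm29 had no count in 1 WD-Exos library, 3 ND-Exos libraries and 1 BCAS library, and reached 56.1 CPM in another ND-Exos library. Its standard errors were the largest among the import genes.

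In the TIM23 complex and its motor, the channel gene Timm23 (Entrez Gene 53600, chromosome 14) was the most abundant. It ran from 63.5 to 149 CPM with a median of 85.5 in WD-Exos, from 65.5 to 173 with a median of 86.7 in ND-Exos, from 80.4 to 171 with a median of 117 in BCAS and from 110 to 148 with a median of 132 in Sham. The Sham libraries were the most alike, and the exosome groups reached above and below them. The log2 fold change was −0.12 in BCAS against Sham, −0.31 in ND-Exos against BCAS, −0.33 in WD-Exos against BCAS and −0.02 in WD-Exos against ND-Exos, each with an SE of 0.26 and an adjusted p of 1. Of its 6 near-identical copies, 1 is annotated as protein-coding, and none had values.

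Timm21, which links the TIM23 complex to the TOM complex, was the higher import gene with the smallest p in BCAS against Sham. It ran from 23.6 to 87.4 CPM with a median of 49.3 in BCAS and from 11.6 to 74.5 with a median of 31.1 in Sham, a log2 fold change of 0.47 (SE 0.48, adjusted p = 1), and 0.25 to 0.79 with 1 library left out. The ranges overlapped over most of their length. Timm44, which tethers the import motor to the channel, held the same place in ND-Exos against BCAS. It ran from 9.74 to 83.6 CPM with a median of 47.9 in ND-Exos and from 2.99 to 57.8 with a median of 24.9 in BCAS, a log2 fold change of 0.63 (SE 0.56, adjusted p = 1), and 0.38 to 0.93 with 1 library left out. In ND-Exos, 3 libraries lay above the highest BCAS library. Timm50, the presequence receptor of the complex, averaged 45.8 ± 29.6 CPM in WD-Exos, 32.1 ± 16.2 in ND-Exos, 48.1 ± 19.1 in BCAS and 43.7 ± 19.5 in Sham. The paralogs Timm17a and Timm17b encode alternative partners of Timm23 in the channel. Timm17a averaged 37.1 ± 5.83 CPM in WD-Exos, 39.7 ± 9.96 in ND-Exos, 36.7 ± 13.8 in BCAS and 33.2 ± 9.44 in Sham, and Timm17b averaged 62.5 ± 31.3 CPM in WD-Exos, 50 ± 16.2 in ND-Exos, 51.4 ± 24.5 in BCAS and 44.5 ± 7.61 in Sham. Both had overlapping ranges in all 4 groups. Of the 6 genes of the TIM23 complex and motor, 4 were higher and 2 lower in BCAS against Sham, and 3 were higher and 3 lower in WD-Exos against BCAS.

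Summed over the 23 tested genes, import transcripts came to 1095 ± 110 CPM in WD-Exos, 1060 ± 43.1 in ND-Exos, 1166 ± 176 in BCAS and 1269 ± 63.6 in Sham (SD, n = 6 each). The sum ran from 918 to 1239 CPM in WD-Exos, from 998 to 1107 in ND-Exos, from 935 to 1416 in BCAS and from 1153 to 1333 in Sham. In this sum the ND-Exos libraries lay below all Sham libraries, while BCAS reached below and above both. Of all tested genes, 0.851% lay apart on the lower side in ND-Exos against Sham. That share is of single genes, so it is not a like background for a sum over 23 genes. A measure not weighted by level, the median log2 deviation of the same genes from their own means, overlapped. It ran from −0.18 to 0.13 in ND-Exos and from 0.07 to 0.36 in Sham. The sum is weighted toward abundant genes such as Tomm6, Timm23 and Tomm22, and was picked with its values in view, so it carries no test. The highest sum, 1416 CPM, belonged to BCAS replicate 2, which also had the highest ribosomal protein share of its group, at 5.65%, and whose part in the spread of BCAS was not tested.

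The other genes of import and folding, a list of 21 outside the Tomm and Timm names, gave the same number of calls: none passed the threshold in any of the 4 comparisons, where 0 to 0.0196% of all genes passed. In BCAS against Sham 10 were higher and 11 lower (52.4% lower, against 50.1% of all genes), in ND-Exos against BCAS 11 and 10 (47.6% lower, against 49.6%), and in WD-Exos against BCAS 9 and 12 (57.1% lower, against 51.1%). In WD-Exos against ND-Exos 4 were higher and 17 lower, or 81% lower against 50.8% of all genes, with a median log2 fold change of −0.25 against −0.01 over all genes. These shares describe the list and carry no test. Hspa9, the matrix chaperone that powers the import motor, was the 1 gene of 21 with an unadjusted p under 0.05 in BCAS against Sham, against 6.04% of all genes. It ran from 115 to 288 CPM with a median of 148 in BCAS and from 63.9 to 142 with a median of 95.8 in Sham, a log2 fold change of 0.76 (SE 0.26, adjusted p = 0.392). Immp1l, a subunit of the inner-membrane peptidase, had the next smallest p of the list there, with 33.8 ± 13.7 CPM in BCAS and 47.3 ± 19.7 CPM in Sham (log2 fold change −0.48, adjusted p = 1). With ND-Exos Hspa9 averaged 116 ± 38.8 CPM, against 166 ± 62.4 CPM in BCAS, a log2 fold change of −0.52 with an SE of 0.26 and an adjusted p of 1, and −0.64 to −0.29 with 1 library left out. Hspd1, the matrix chaperonin, averaged 131 ± 43.3 CPM in ND-Exos and 182 ± 65.2 CPM in BCAS (log2 fold change −0.48, adjusted p = 1).

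In WD-Exos against ND-Exos the 1 such gene of 21 was Grpel1, the nucleotide exchange factor of Hspa9, where 5.33% of all genes had such a p. It ran from 26.9 to 75 CPM with a median of 46.9 in WD-Exos and from 59.5 to 129 with a median of 62.5 in ND-Exos, a log2 fold change of −0.66 (SE 0.32, adjusted p = 0.924). Romo1, a small inner-membrane protein, averaged 56 ± 8.88 CPM in WD-Exos and 75 ± 12.6 CPM in ND-Exos (log2 fold change −0.42, adjusted p = 1). In WD-Exos against BCAS the smallest p values of the list were those of Samm50, the core of the outer-membrane sorting machinery, and of the inner-membrane insertase Oxa1l, each with an adjusted p of 1. Samm50 averaged 83.4 ± 22.6 CPM in WD-Exos and 62.3 ± 14 CPM in BCAS, and Oxa1l averaged 46.1 ± 23.4 CPM in WD-Exos and 19.7 ± 16.1 CPM in BCAS.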

How the data were processed

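The deposited table holds expected counts per Entrez gene, 76.8% of the genes being exactly whole numbers, with no rounding tolerance, in every library. For the authors' aligner, counting tool, genome build and strand setting, no source used here gives a value; per the labels' protocols, complementary DNA was amplified by Smart-seq2. Of 22064 rows, 6186 were blank and left out. Symbols (22002 matched) and promoters came from RefSeq (GRCm38.p6), and transcript lengths, exon overlaps and near-identical copies (blastn 2.17.0, at least 90% identity over 200 bases) from GENCODE annotation, whose build need not be the authors'.

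Counts were rounded, kept with filterByExpr at a minimum of 10 and scaled by TMM (factors 0.936 to 1.17). They were tested with edgeR 4.0.16 in R 4.3.3 by robust quasi-likelihood F tests, in 1 fit of 24 libraries and 4 group means, with Benjamini-Hochberg adjustment over 10219 genes. Levels are CPM computed from these counts. The common biological coefficient of variation was 1.45. Amplified reads lack molecular identifiers, so counting error understates the error of a level.

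The members and gene lists were chosen with earlier results of these data known. Full values were given for members with an unadjusted p under 0.05, for the higher and lower member with the smallest p in each comparison, for members whose groups lay apart, and for Tomm40 and Timm23; of the other import genes, the 2 with the smallest p. Alternatives were DESeq2-type size factors, no filter and a minimum of 50 counts, the replicate number as a block, detected genes as a covariate, only the libraries compared, DESeq2 1.42.0, voom with library weights (limma 3.58.1) and leaving out each library.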

Additional observations from a re-analysis of the deposited data

Results flagged for a closer look

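In 5 of the 92 combinations of an import gene and a group, the highest library stood apart from the other 5 by more than Dixon's critical value for 6 values. For normally distributed values, chance flags about 5% of groups, counting the highest and the lowest library, so about as many as were seen. Whether these levels are so distributed was not tested. Timm23 reached 173 CPM in ND-Exos replicate 1, against 93.2 CPM in the next library. Timm8b reached 60.6 CPM in Sham replicate 6, against 32 CPM. Tomm22 reached 172 CPM in WD-Exos replicate 1, against 105 CPM, and 122 CPM in ND-Exos replicate 3, against 105 CPM. Tomm6 reached 171 CPM in BCAS replicate 2, against 115 CPM. In each of the 5 the library apart was the highest.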

How the results depend on the processing

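With edgeR under any alternative, with voom and with each library left out, no import gene passed the threshold in any comparison, and the higher and the lower import gene with the smallest p in each comparison of the design kept their direction. DESeq2 called 1 import gene, Tomm7, in WD-Exos against Sham (log2 fold change −0.66, adjusted p = 0.029) and in the test of any difference (adjusted p = 0.0478, with no adjusted p for 15 import genes), where it called 172 and 160 of all genes and edgeR 0 and 3. It also called 193, 141, 109 and 124 of all genes in the 4 comparisons of the design (in the order BCAS against Sham, ND-Exos against BCAS, then WD-Exos against BCAS and against ND-Exos), where edgeR called 0, 2, 0 and 2 and voom 9, 1, 1 and 4; the cause was not tested. With a library left out, edgeR called 0 to 32 of all genes in BCAS against Sham, 0 to 30 in ND-Exos against Sham and 0 to 23 in WD-Exos against Sham, the highest in each being that without BCAS replicate 2.

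Counts of import genes with an unadjusted p under 0.05 moved as follows. In BCAS against Sham the count of 0 became 1 with the replicate block, 2 with voom, and 0 to 1 with a library left out. In ND-Exos against BCAS the count of 0 became 1 with detected genes as a covariate, and 0 to 1 with a library left out. In WD-Exos against BCAS the count of 0 became 1 with DESeq2, 3 with voom, and 0 to 1 with a library left out, and in WD-Exos against ND-Exos it became 3 with voom. In ND-Exos against Sham the count of 1 became 0 with no filter and with only the libraries compared, 2 with DESeq2, 3 with voom, and 0 to 2 with a library left out. In WD-Exos against Sham the count of 2 became 1 to 3 with a library left out. No pairing by replicate number was seen, though the labels do not settle it: same-numbered libraries of 36 pairs correlated at −0.057 to 0.059, none over 0.1. The block changed no call of an import gene, but edgeR called none without it either. Among all genes it took the edgeR calls in ND-Exos against Sham from 11 to 0.

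The genes with the widest intervals were Tomm40, Tomm70a, Timm8a1, Timm9 and Timm29, which had libraries at 0.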
